A study of Mus musculus with 17 samples.

Results

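The genes described here are 37 mouse genes that serve protein folding in the endoplasmic reticulum (ER) and the unfolded protein response (UPR). They were chosen as a written list of symbols, with earlier results of these data known. Of the 37, 36 were measured among the 19751 genes tested. Kdelr2 is not analysed here. The data are whole-lung RNA levels from 17 Balb/c mice, 1 Affymetrix Mouse Gene 1.0 ST array per mouse, in a study on blocking the hub of neogenin, RGMb and bone morphogenetic proteins in allergic airways. Of these mice, 6 received ovalbumin (OVA) for sensitization and challenge together with a monoclonal antibody against RGMb. A further 5 received OVA at both steps and an isotype antibody, and 6 received saline at both steps, with no antibody named for them. No group had anti-RGMb without OVA, so effects of the antibody that need no OVA cannot be told apart from effects on the OVA response. The isotype-to-saline difference holds both OVA and the isotype antibody. The lungs were collected at 1 common time point. The mice form 2 replicate sets, the first with 3 mice of each group (mice 1, 2 and 3) and the second with 3 anti-RGMb, 2 isotype and 3 saline mice (mice 1-2, 2-2 and 3-2). The labels number the mice but do not say whether mouse 1-2 is another animal than mouse 1 of its group, so each array was counted as 1 mouse and the p-values measure the spread between arrays. Deviations from the group mean of the set were correlated across genes, which are not independent. They ran between -0.18 and 0.29 for the 8 pairs of same-numbered mice of a group in the 2 sets. For the 16 pairs with different numbers they ran between -0.29 and 0.27. In the isotype group the same-numbered pairs were at 0.24 and 0.29 and the others at -0.29 to 0.06. Deviations cancel out within a group and set, which ties the pairs to each other, so these values cannot decide whether the animals are distinct.

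Proteins bound for the cell surface, the secretory pathway or the outside enter the ER through the Sec61 channel and fold there with chaperones, disulfide isomerases and lectins. When unfolded protein builds up, the sensors IRE1, ATF6 and PERK start the UPR. IRE1 splices the Xbp1 mRNA, ATF6 is cut to release a transcription factor, and PERK slows translation and favours ATF4, which can raise Ddit3 and Trib3. Spliced XBP1 and ATF6 raise genes for folding, for ER-associated degradation (ERAD) and for transport, and they do so also in healthy secretory cells such as plasma cells and mucous cells. A gene-level array does not separate the spliced from the unspliced Xbp1 mRNA, and it does not see cut ATF6 or the translation of Atf4.

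The deposited values were RMA intensities on a linear scale, with array medians of 120.5 to 124.8 in the first set and 362.1 to 386.2 in the second. The set was therefore a term of every fit, and single mice are given as log2 level above the saline mean of their own set. The lowest correlation across genes between arrays of a set was 0.975 in the first set and 0.968 in the second. Array weights, which are lower for arrays that vary more, were lowest in 3 arrays of the second set. These were isotype mice 1-2 and 2-2 (0.38 and 0.24), the only isotype mice of that set, and anti-RGMb mouse 3-2 (0.26). In the other arrays the weights were 0.77 to 1.86. The lung markers Sftpc, Sftpb, Scgb1a1 and Cldn5 were within the brightest genes of all 17 arrays, at percentile 97.8 or above. Of the 36 measured genes, 33 were brighter than the median gene, with a median percentile of 92.5, and 0 were below the lower quartile of intensity in all saline arrays. Differences are in log2 units with standard errors, from limma fitted to all 19751 genes, and a gene was called where the Benjamini-Hochberg adjusted p was under 0.05.

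Several of these genes have long been known to carry short promoter elements that the UPR uses, and the elements are shown here for reference. The members were listed as folding and UPR genes, so a high share of such elements follows from the list and is no result of these data. The window from 250 bases before to 50 bases after the annotated start was held for 30 members (RefSeq, GRCm38.p6), in 32 windows since some genes have more than 1 start. Both strands were searched for the letters of the ER stress response element (ERSE, CCAAT and CCACG with any 9 bases between), of ERSE-II (ATTGG and CCACG with any 1 base between), of the XBP1-bound UPR element (UPRE, TGACGTGG), of the ATF4-bound amino acid response element (AARE, TGATGNAA) and of the cyclic AMP response element (CRE, TGACGTCA). ERSE was found in 9 of the 32 member windows (28.1%), against 39 of all 32851 windows in the table (0.119%). ERSE-II was found in 2 member windows (6.25%), against 0.0365% of all windows. UPRE was found in 1 (3.12% against 0.676%), AARE in 2 (6.25% against 3.97%) and CRE in 0 (against 1.79%). Hsp90b1 held 2 ERSE matches, and Herpud1 held an AARE and an ERSE-II, in both cases without overlap. ERSE and ERSE-II share the letters CCACG, and UPRE and CRE share TGACGT. The elements are printed in the direction of the motif, with its fixed letters in capitals:
Calr, ERSE, chr8:84847075-84847093, plus strand: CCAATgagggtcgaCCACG
Canx, ERSE, chr11:50325800-50325818, minus strand: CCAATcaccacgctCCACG
Creld2, ERSE, chr15:88819520-88819538, minus strand: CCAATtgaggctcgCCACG
Derl3, ERSE, chr10:75893242-75893260, minus strand: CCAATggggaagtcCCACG
Dnajb11, ERSE-II, chr16:22857852-22857862, plus strand: ATTGGcCCACG
Dnajc3, ERSE, chr14:118937827-118937845, plus strand: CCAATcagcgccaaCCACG
Herpud1, AARE, chr8:94386317-94386324, minus strand: TGATGcAA
Herpud1, ERSE-II, chr8:94386377-94386387, plus strand: ATTGGgCCACG
Hsp90b1, ERSE, chr10:86705638-86705656, minus strand: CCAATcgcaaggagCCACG
Hsp90b1, ERSE, chr10:86705533-86705551, plus strand: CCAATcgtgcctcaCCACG
Hspa5, ERSE, chr2:34772025-34772043, plus strand: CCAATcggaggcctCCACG
Pdia6, ERSE, chr12:17266491-17266509, plus strand: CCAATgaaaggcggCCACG
Sec24d, UPRE, chr3:123267470-123267477, plus strand: TGACGTGG
Syvn1, ERSE, chr19:6046532-6046550, plus strand: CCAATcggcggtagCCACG
Trib3, AARE, chr2:152344039-152344046, plus strand: TGATGtAA

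The 250 bases before the start are given below for 5 of these genes, read along the gene, with the ERSE or ERSE-II in capitals. Hspa5, Creld2, Derl3 and Pdia6 were picked among the members with an ERSE that rose with OVA. Of the 9 members with an ERSE, 6 were called higher in isotype than in saline mice, and Canx, Dnajc3 and Syvn1 were not. Herpud1, with an ERSE-II, is the only member called higher with anti-RGMb than with isotype. That call was lost in 13 of the 17 runs that left out 1 mouse. In Creld2 and Derl3 the ERSE lies on the opposite strand and so reads as its reverse complement.
Hspa5, chr2:34771840-34772089, plus strand: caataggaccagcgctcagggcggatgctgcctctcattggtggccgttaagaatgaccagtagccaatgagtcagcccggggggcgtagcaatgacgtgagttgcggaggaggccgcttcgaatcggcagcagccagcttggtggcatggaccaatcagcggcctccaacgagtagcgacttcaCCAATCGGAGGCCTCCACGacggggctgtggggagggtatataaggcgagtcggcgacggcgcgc
Creld2, chr15:88819396-88819645, plus strand: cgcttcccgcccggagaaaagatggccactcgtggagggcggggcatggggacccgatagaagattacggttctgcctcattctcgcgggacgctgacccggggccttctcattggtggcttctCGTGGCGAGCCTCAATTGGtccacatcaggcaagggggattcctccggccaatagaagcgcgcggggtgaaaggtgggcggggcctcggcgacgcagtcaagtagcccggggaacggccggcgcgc
Derl3, chr10:75893148-75893397, plus strand: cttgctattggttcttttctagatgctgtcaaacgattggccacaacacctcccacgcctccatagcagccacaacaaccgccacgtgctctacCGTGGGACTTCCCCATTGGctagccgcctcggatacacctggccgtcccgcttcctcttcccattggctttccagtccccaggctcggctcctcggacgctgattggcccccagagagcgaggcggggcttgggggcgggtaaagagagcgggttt
Pdia6, chr12:17266339-17266588, plus strand: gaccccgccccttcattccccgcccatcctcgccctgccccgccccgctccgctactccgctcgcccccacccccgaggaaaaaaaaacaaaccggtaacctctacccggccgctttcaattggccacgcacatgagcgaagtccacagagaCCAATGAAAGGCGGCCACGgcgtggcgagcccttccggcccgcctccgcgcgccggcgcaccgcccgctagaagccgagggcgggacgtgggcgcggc
Herpud1, chr8:94386179-94386428, plus strand: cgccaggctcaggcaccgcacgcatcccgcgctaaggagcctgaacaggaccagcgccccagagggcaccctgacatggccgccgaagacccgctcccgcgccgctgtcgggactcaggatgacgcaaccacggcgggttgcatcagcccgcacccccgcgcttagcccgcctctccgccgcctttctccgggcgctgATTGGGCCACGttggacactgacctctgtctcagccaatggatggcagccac

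A match describes these letters only. Of the 12 members with an ERSE, ERSE-II or UPRE, 8 were higher in isotype than in saline mice, with a median difference of 0.29. Of the 18 members whose windows held none of the 3, 11 were higher, with a median of 0.21. Sdf2l1, Edem1 and Pdia4, which are among the largest rises below, are in the group without an exact match.

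OVA with isotype antibody was compared with saline to ask how the allergen changes these genes. Genes of the folding machinery were higher in isotype mice: 22 of the 36 measured members were called higher, 0 lower (1, Atf4, at an unadjusted p under 0.05), and 14 were not past the threshold. Across all genes 14.6% were called higher and 21.0% lower, 35.6% in all. The list was chosen with earlier results of these data known. Its shares beside those over all genes, here and below, are therefore descriptive and no independent test. The median difference of the members was 0.23, against -0.04 over all genes. All 22 called members had the same sign in both replicate sets. The groups did not overlap within either set, with isotype above saline, for 19 of 36 members, against 11.7% of all genes, and with isotype below saline for 0 members, against 15.1%. Most rises were small, and only Sdf2l1 and Derl3 were at least 2-fold higher. Without 1 mouse at a time the number of members called higher ran between 19 and 23, and it was 19 without isotype mouse 1 and likewise without saline mouse 1, which was the lowest saline mouse for 24 of the 36 members. A lung sample is a mixture, so more cells of a type and more RNA per cell cannot be told apart in any of these values.

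Anti-RGMb was compared with isotype, both with OVA, to ask what the antibody changes in the allergic lung. The same machinery was lower with anti-RGMb: 18 of 36 members were called lower, 1 (Herpud1) higher, and 17 were not past the threshold, against 10.0% lower and 11.1% higher over all genes, 21.2% in all. The members' median difference was -0.18, against 0.03 over all genes. The values of the mice did not overlap within either set, with anti-RGMb below isotype, for 16 members, against 7.26% of all genes, and with anti-RGMb above isotype for 0, against 7.57%. No called member changed 2-fold. Within the first set 4 members were called lower and within the second 9, against 18 with both. These calls come from a fit of all 17 arrays, so the sets share 1 estimate of the spread. With both sets, the number called lower ran between 15 and 20 without 1 mouse at a time. This comparison shares its isotype mice with the first one, so the 2 sets of values are not independent of each other.

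Anti-RGMb was also compared with saline, to ask what of the response stood under the antibody. Sdf2l1 and Edem1 were called higher, 0 members were lower (0 also at an unadjusted p under 0.05, limma) and 34 were not past the threshold. That is a share of 5.56%, near the 6.50% called over all genes (4.26% higher and 2.24% lower). Of all calls 65.6% were higher, or 54.6% where arrays were centred on their median. The groups did not overlap, with anti-RGMb above saline, for 2 members, against 4.70% of all genes, and with anti-RGMb below saline for 0, against 3.88%. The members' median was 0.05, against -0.01 over all genes. At an unadjusted level the 95% interval of Pdia4 (0.01 to 0.37) and that of Derl3 (0.05 to 0.84) also lay above 0.

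**Figure D1:**
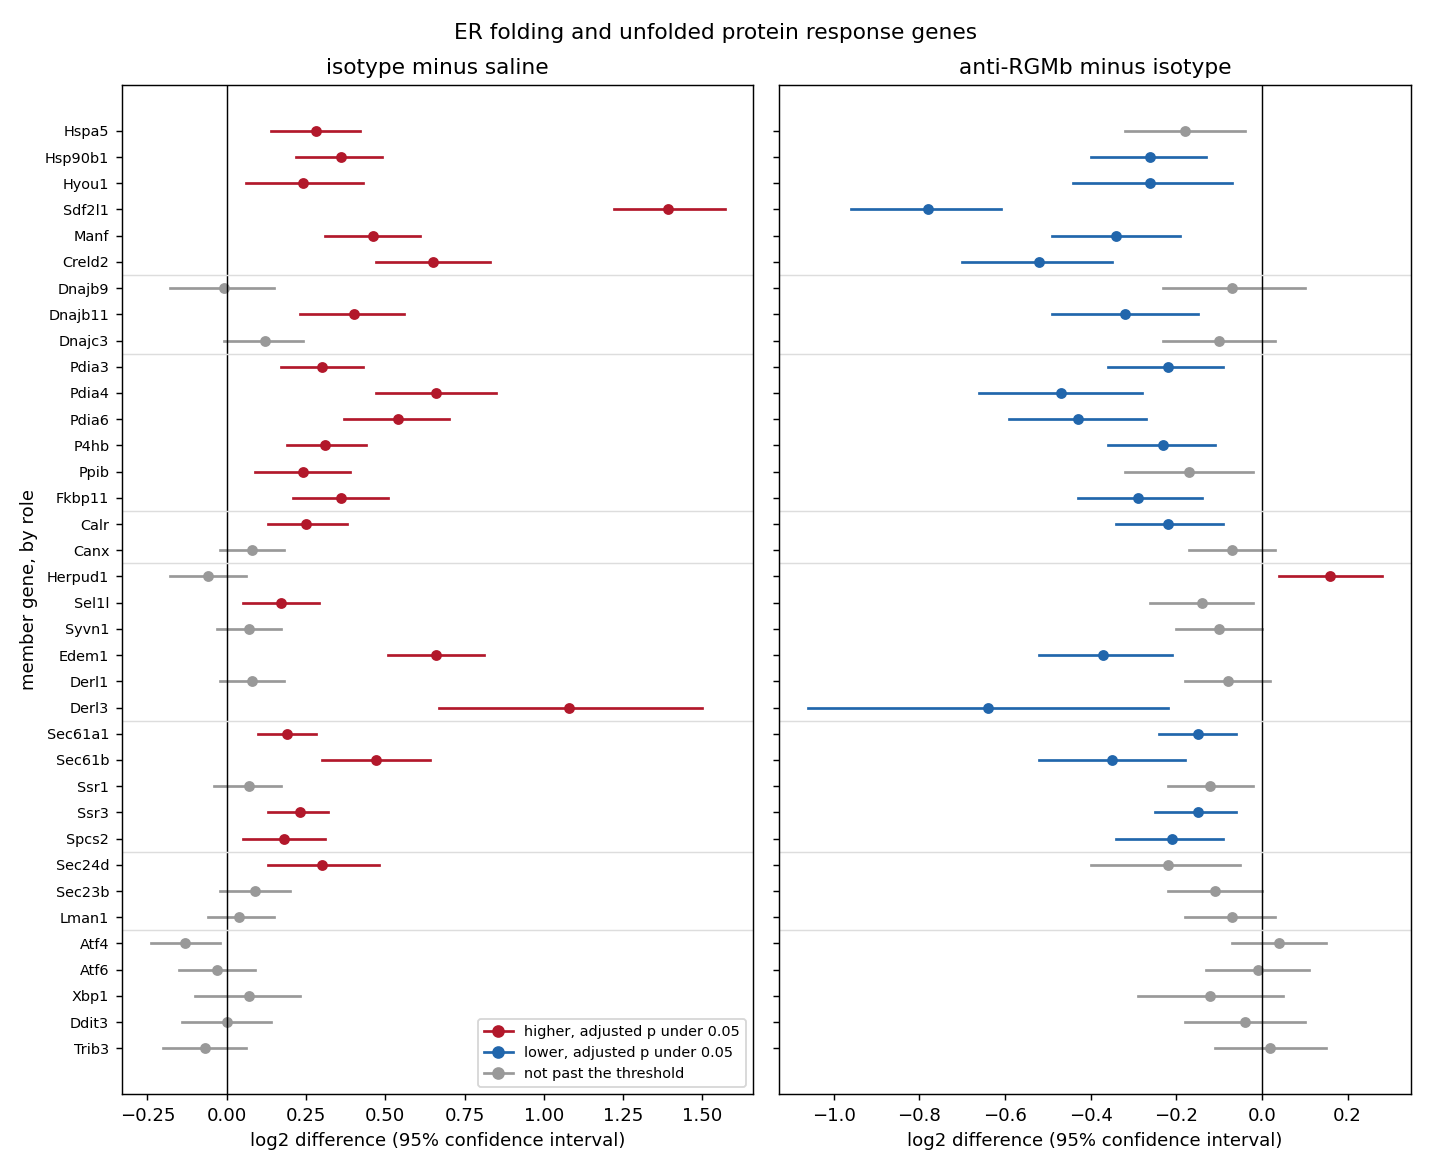
Log2 difference of each of the 36 measured genes, ordered by role from top to bottom, for isotype minus saline (left) and anti-RGMb minus isotype (right). Points are estimates and bars their 95% confidence intervals. Red marks genes called higher (22 on the left, 1 on the right), blue genes called lower (0 and 18) and grey genes not past the threshold, which include all 5 genes of UPR transcription and ATF4 output at the bottom.

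Below, a difference with OVA is isotype minus saline and one with anti-RGMb is anti-RGMb minus isotype, and where 2 differences follow a gene name they stand in that order. The chaperones were called higher with OVA in all 6 cases, with differences of 0.24 to 1.39, and lower with anti-RGMb in 5 of 6. Sdf2l1, an ER-resident partner of the J-domain proteins that serve BiP, changed most of all members. Its intensity in the first set was 357 to 412 in anti-RGMb mice, 553 to 787 in isotype mice and 237 to 290 in saline mice, and in the second set it was 2496 to 2538 in anti-RGMb mice, 4142 to 4843 in isotype mice and 1514 to 1652 in saline mice. Above the saline mean of the set, Sdf2l1 stood at 0.41 to 0.70 (median 0.65) in anti-RGMb mice, at 1.55, 1.28, 1.04, 1.63 and 1.40 in isotype mice 1, 2, 3, 1-2 and 2-2, and at -0.18 to 0.11 (median 0.02) in saline mice. The 3 groups lay apart, with isotype mice highest, anti-RGMb mice between and saline mice lowest. Sdf2l1 was 1.39 ± 0.08 higher in isotype than in saline mice (2.63-fold, adjusted p = 8.63e-10). The anti-RGMb minus isotype difference was -0.78 ± 0.08 (adjusted p = 8.06e-06), and anti-RGMb mice were 0.61 ± 0.08 above saline mice (adjusted p = 6.64e-05).

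Creld2, a secreted ER stress protein with isomerase activity, stood at 0.07 to 0.16 (median 0.13) in anti-RGMb mice. In isotype mice, in the same order, Creld2 stood at 0.86, 0.45, 0.36, 0.64 and 0.92, and in saline mice at -0.14 to 0.11 (median 0.00). Every isotype mouse was above every mouse of the other groups, and anti-RGMb and saline mice overlapped. Creld2 was 0.65 ± 0.08 higher in isotype than in saline mice (adjusted p = 7.02e-06) and changed by -0.52 ± 0.08 with anti-RGMb (adjusted p = 0.00024). Manf, an ER-stress-induced secreted factor that binds BiP, stood at 0.00 to 0.17 (median 0.13) with anti-RGMb, at 0.58, 0.39, 0.26, 0.51 and 0.52 with isotype and at -0.22 to 0.17 (median 0.03) with saline. Again the isotype mice were above all others, while the other groups overlapped. Manf differed by 0.46 ± 0.07 between isotype and saline (adjusted p = 6.22e-05) and by -0.34 ± 0.07 between anti-RGMb and isotype (adjusted p = 0.00238).

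Hspa5, which encodes BiP, the main ER Hsp70 and the classic UPR reporter, is given in full although the naming rule did not pick it. It stood at 0.03 to 0.21 (median 0.10) in anti-RGMb mice, at 0.27, 0.21, 0.15, 0.24 and 0.51 in isotype mice and at -0.20 to 0.12 (median 0.01) in saline mice. Isotype and anti-RGMb mice overlapped across the sets but not within either set. Hspa5 was called higher in isotype than in saline mice (0.28 ± 0.07, adjusted p = 0.00222). Its anti-RGMb minus isotype difference of -0.18 ± 0.07 was not past the threshold (adjusted p = 0.0573, 95% interval -0.32 to -0.04), though it was with an offset of 16 before log2, with quantile scaling, without the dimmest 40% of genes and with a variance trend. Hsp90b1, the ER Hsp90 known as GRP94, was higher by 0.36 ± 0.07 with OVA (adjusted p = 0.000298) and differed by -0.26 ± 0.07 with anti-RGMb (adjusted p = 0.00708). Hyou1, a large Hsp70-like exchange factor of BiP, was called in both comparisons (0.24 ± 0.09, adjusted p = 0.04, and -0.26 ± 0.09, adjusted p = 0.0472), but the first call was lost in 6 and the second in 11 of the 17 runs that left out 1 mouse. Without isotype mouse 2-2, which stood at 0.70, the differences were 0.13 (adjusted p = 0.143) and -0.14 (adjusted p = 0.149).

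Of the 3 measured cochaperones that carry J domains, only Dnajb11 was called. Dnajb11, known as ERdj3 and a BiP partner on new chains, stood at -0.02 to 0.12 (median 0.10) in anti-RGMb mice, at 0.49, 0.29, 0.33, 0.14 and 0.72 in isotype mice and at -0.12 to 0.12 (median 0.00) in saline mice. Isotype mice were all above the rest, isotype mouse 1-2 by the smallest gap. The difference was 0.40 ± 0.08 for isotype minus saline (adjusted p = 0.000672) and -0.32 ± 0.08 for anti-RGMb minus isotype (adjusted p = 0.00707). Dnajc3, the p58IPK inhibitor of PERK, had differences of 0.12 ± 0.06 and -0.10 ± 0.06 in these comparisons, neither past the threshold. Dnajb9, known as ERdj4 and a target of XBP1, had values of -0.01 ± 0.08 (95% interval -0.18 to 0.15) and -0.07 ± 0.08. In single mice Dnajb9 ran from -0.39 to 0.07 with anti-RGMb, from -0.23 to 0.16 with isotype and from -0.16 to 0.10 with saline, so the groups overlapped over both sets. In the first set the isotype mice (0.07 to 0.16) were above the saline mice (-0.04 to 0.03), and the isotype minus saline difference was 0.12 in the first set and -0.19 in the second (interaction adjusted p = 0.511).

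**Figure D2:**
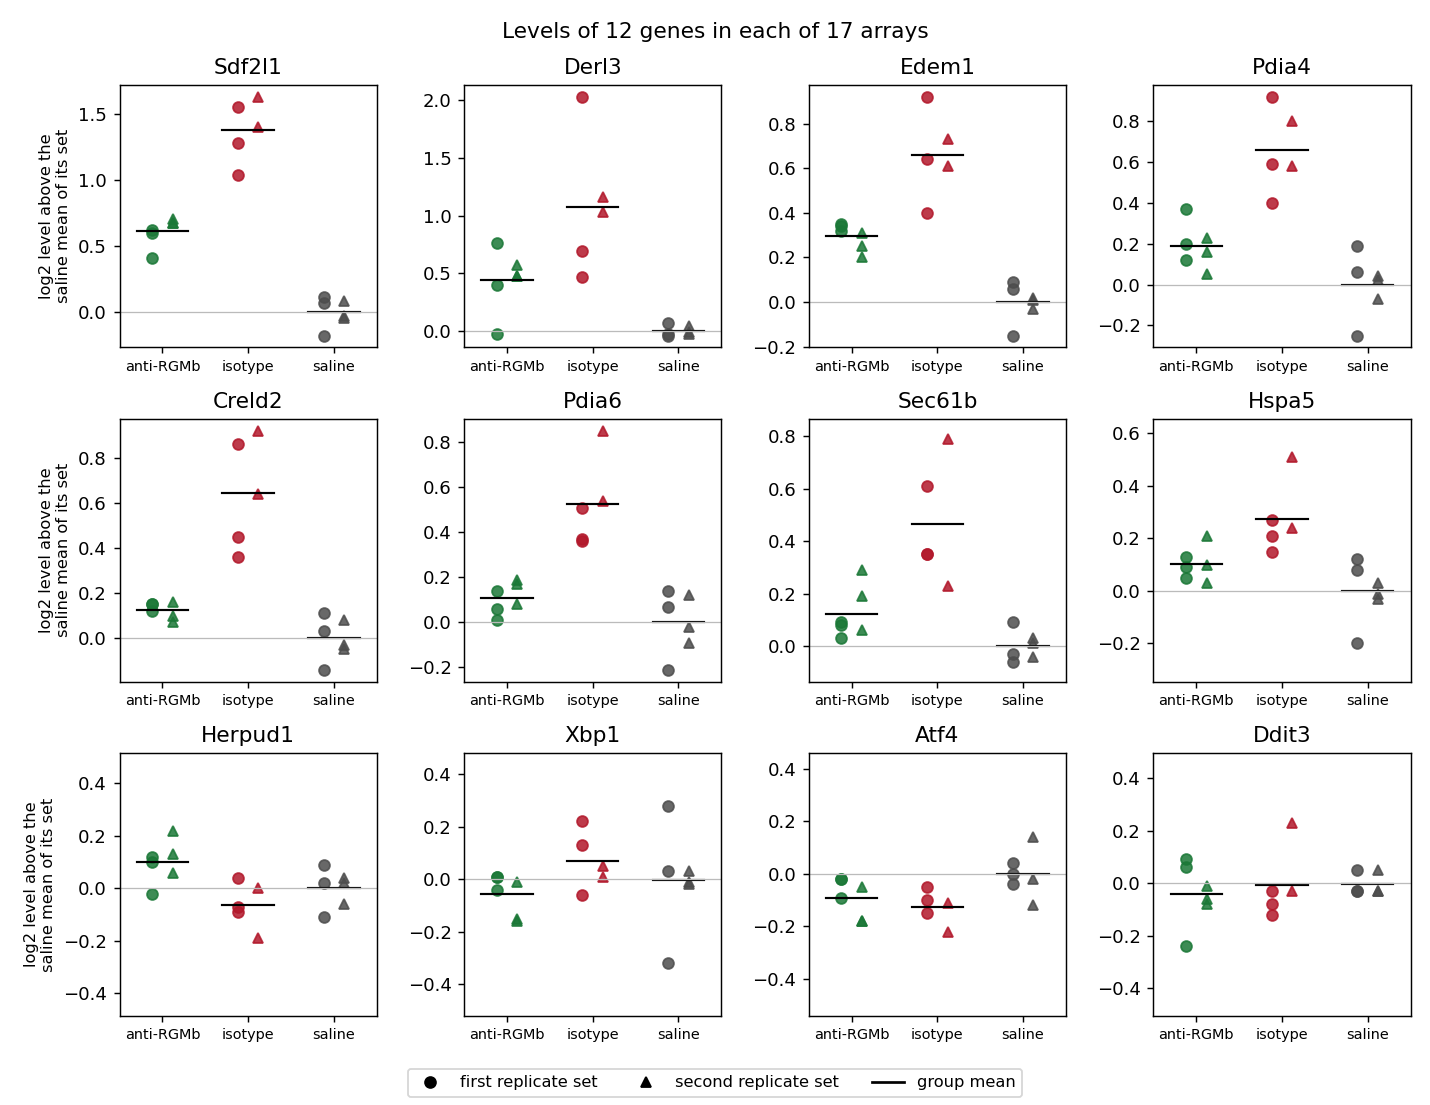
Log2 level above the saline mean within the replicate set (vertical axis, scale set per gene) for 12 genes in anti-RGMb, isotype and saline mice. Circles are mice of the first set, triangles mice of the second and lines group means. For Sdf2l1 and Edem1 the 3 groups lie apart, for Creld2 and Pdia6 only the isotype mice do, and for Xbp1, Atf4 and Ddit3 the groups overlap.

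The enzymes that form disulfides or turn prolines were called higher with OVA in all 6 cases (0.24 to 0.66) and lower with anti-RGMb in 5 of 6. Pdia4, a disulfide isomerase known as ERp72, stood at 0.05 to 0.37 (median 0.18) in anti-RGMb mice, at 0.92, 0.59, 0.40, 0.58 and 0.80 in isotype mice and at -0.25 to 0.19 (median 0.03) in saline mice. The isotype mice were highest and did not overlap with either group, although anti-RGMb mouse 3 came close to isotype mouse 3. Pdia4 rose by 0.66 ± 0.09 with OVA (adjusted p = 1.7e-05) and differed by -0.47 ± 0.09 with anti-RGMb (adjusted p = 0.00124). Pdia6, a disulfide isomerase that also tunes the UPR sensors, stood at 0.01 to 0.19 (median 0.11) with anti-RGMb, at 0.51, 0.36, 0.37, 0.54 and 0.85 with isotype and at -0.21 to 0.14 (median 0.03) with saline. Isotype mice again lay above all others. The differences of Pdia6 were 0.54 ± 0.08 (adjusted p = 2.29e-05) and -0.43 ± 0.08 (adjusted p = 0.000611).

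P4hb, the archetypal protein disulfide isomerase and a subunit of prolyl hydroxylase, stood at 0.02 to 0.13 (median 0.09) in anti-RGMb mice, at 0.35, 0.32, 0.14, 0.22 and 0.52 in isotype mice and at -0.11 to 0.09 (median 0.03) in saline mice. All isotype mice were above the others, isotype mouse 3 narrowly. P4hb differed by 0.31 ± 0.06 (adjusted p = 0.000392) and by -0.23 ± 0.06 (adjusted p = 0.00849). Fkbp11, a prolyl isomerase abundant in secretory cells, was 0.36 ± 0.07 higher with OVA and changed by -0.29 ± 0.07 with anti-RGMb (adjusted p = 0.00714). Pdia3, the isomerase that works with the lectins, was 0.30 ± 0.06 higher with OVA and changed by -0.22 ± 0.06 with anti-RGMb (adjusted p = 0.0175, and 0.0545 without isotype mouse 1). Ppib, the ER cyclophilin, was 0.24 ± 0.07 higher with OVA (adjusted p = 0.0148), by 0.39 in the first set and 0.05 in the second, and its anti-RGMb minus isotype difference of -0.17 ± 0.07 was not past the threshold.

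The lectin chaperones hold glycoproteins that carry a trimmed sugar. Calr, the soluble one, stood at -0.03 to 0.10 (median 0.05) in anti-RGMb mice, at 0.28, 0.28, 0.17, 0.16 and 0.37 in isotype mice and at -0.20 to 0.12 (median 0.02) in saline mice. The isotype mice lay above the rest. Calr was 0.25 ± 0.06 higher with OVA (adjusted p = 0.00246) and differed by -0.22 ± 0.06 with anti-RGMb (adjusted p = 0.0134). Its membrane-bound relative Canx, also with an ERSE in its window, had differences of 0.08 ± 0.05 (95% interval -0.02 to 0.18) and -0.07 ± 0.05, neither past the threshold.

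The ERAD genes, whose products take misfolded proteins out of the ER, did not move as one. With OVA 3 of 6 were called higher, and with anti-RGMb 2 were lower and 1 higher. Edem1, which marks glycoproteins for removal by trimming mannose, stood at 0.20 to 0.35 (median 0.31) in anti-RGMb mice, at 0.92, 0.64, 0.40, 0.61 and 0.73 in isotype mice and at -0.15 to 0.09 (median 0.02) in saline mice. As with Sdf2l1, the 3 groups did not overlap. Edem1 was 0.66 ± 0.07 higher in isotype than in saline mice (adjusted p = 1.27e-06), and its anti-RGMb minus isotype difference was -0.37 ± 0.07 (adjusted p = 0.0014). With anti-RGMb it was 0.29 ± 0.07 above saline (adjusted p = 0.0138).

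Derl3, a derlin of the retrotranslocation channel found mainly in secretory cells, varied most between mice. In the first set its intensity was 83.4 to 145 in anti-RGMb mice, 118 to 350 in isotype mice and 83.0 to 89.6 in saline mice. Above the saline mean it stood at -0.03 to 0.76 (median 0.48) with anti-RGMb, at 2.03, 0.69, 0.47, 1.16 and 1.03 with isotype and at -0.04 to 0.07 (median -0.02) with saline. Every isotype mouse was above every saline mouse, isotype mouse 1 by the most, while anti-RGMb mice reached into the range of both groups, with anti-RGMb mouse 1 at the saline level. Derl3 was 1.08 ± 0.20 higher in isotype than in saline mice (2.12-fold, adjusted p = 0.000276). The anti-RGMb minus isotype difference was -0.64 ± 0.20 (adjusted p = 0.027), and leaving out anti-RGMb mouse 1 gave -0.54 (adjusted p = 0.0671). The call was also lost when isotype mouse 1-2 was left out (-0.63, adjusted p = 0.0603).

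Sel1l, the scaffold of the HRD1 ubiquitin ligase, stood at -0.05 to 0.07 (median 0.05) in anti-RGMb mice, at 0.34, 0.11, 0.07, 0.06 and 0.28 in isotype mice and at -0.10 to 0.10 (median 0.01) in saline mice. Isotype mice 1 and 2-2 were high, isotype mouse 2 was just above the saline range and the other isotype mice were within it. The rise of Sel1l with OVA (0.17 ± 0.06, adjusted p = 0.0248) rested on single mice. The adjusted p was 0.08 when isotype mouse 1, 0.0826 when isotype mouse 2-2 and 0.0655 when saline mouse 1 was left out. The call was also lost in 5 alternatives that did not leave out 1 mouse. Its partner Syvn1, the HRD1 ligase itself, had differences of 0.07 ± 0.05 and -0.10 ± 0.05, and the derlin Derl1 had 0.08 ± 0.05 and -0.08 ± 0.05, none past the threshold.

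Herpud1, an ERAD adaptor that is a standard UPR and ATF4 target, was the single member called higher with anti-RGMb than with isotype, and it was singled out after its values were seen. It stood at -0.02 to 0.22 (median 0.11) in anti-RGMb mice, at -0.07, 0.04, -0.09, -0.19 and 0.00 in isotype mice and at -0.11 to 0.09 (median 0.02) in saline mice. The groups overlapped, with isotype mouse 1-2 lowest. Herpud1 differed by 0.16 ± 0.06 between anti-RGMb and isotype (adjusted p = 0.0477), but the call was lost in 13 of the 17 runs that left out 1 mouse, some without a saline mouse. In those 13 the difference was 0.12 to 0.17 (adjusted p 0.0501 to 0.141), lowest without isotype mouse 1-2. Its isotype minus saline difference was -0.06 ± 0.06 (95% interval -0.18 to 0.06).

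Among genes for entry into the ER and signal peptide removal, 4 of 5 were called higher with OVA and 4 lower with anti-RGMb. Sec61b, the beta subunit of the channel, stood at 0.03 to 0.29 (median 0.08) in anti-RGMb mice, at 0.61, 0.35, 0.35, 0.23 and 0.79 in isotype mice and at -0.06 to 0.09 (median -0.01) in saline mice. Isotype mice were all above saline mice, and isotype mouse 1-2 fell within the anti-RGMb range. Sec61b was 0.47 ± 0.08 higher with OVA (adjusted p = 0.000154) and differed by -0.35 ± 0.08 with anti-RGMb (adjusted p = 0.00471). It is the only member with several single-gene probe sets, and all 3 had the same direction, with isotype minus saline differences of 0.49, 0.53 and 0.47. Ssr3, a subunit of the translocon-associated protein complex, stood at -0.04 to 0.20 (median 0.07) with anti-RGMb, at 0.31, 0.22, 0.16, 0.23 and 0.20 with isotype and at -0.02 to 0.02 (median 0.00) with saline. Saline mice were tightly grouped and below every isotype mouse.

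Ssr3 differed by 0.23 ± 0.04 between isotype and saline (adjusted p = 0.000566) and by -0.15 ± 0.04 between anti-RGMb and isotype (adjusted p = 0.0199). The call for the antibody was lost when anti-RGMb mouse 2 was left out (-0.13, adjusted p = 0.058). It was lost as well when isotype mouse 1 was left out (-0.13, adjusted p = 0.0616). A further 5 alternatives that did not leave out 1 mouse also lost it. Sec61a1, the pore subunit, stood at 0.00 to 0.10 (median 0.04) in anti-RGMb mice, at 0.18, 0.19, 0.14, 0.21 and 0.25 in isotype mice and at -0.09 to 0.05 (median 0.02) in saline mice. The isotype mice lay above all the others in a narrow range. The differences of Sec61a1 were 0.19 ± 0.04 (adjusted p = 0.00136) and -0.15 ± 0.04 (adjusted p = 0.0167). Spcs2, a signal peptidase subunit, was 0.18 ± 0.06 higher with OVA (adjusted p = 0.0244) and differed by -0.21 ± 0.06 with anti-RGMb (adjusted p = 0.016). Its call with OVA was lost when isotype mouse 1 (adjusted p 0.0717), saline mouse 1 (0.0542) or saline mouse 2-2 (0.0584) was left out. Of the alternatives that did not leave out 1 mouse, 4 lost this call and 3 lost the call with anti-RGMb. Ssr1, the alpha subunit of the complex of Ssr3, had 0.07 ± 0.05 and -0.12 ± 0.05, neither past the threshold.

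Of the 3 measured genes for transport between the ER and the Golgi, Sec24d alone was called. Sec24d, a cargo-binding subunit of the COPII coat and the member with a UPRE in its window, stood at 0.02 to 0.20 (median 0.07) in anti-RGMb mice, at 0.44, 0.14, 0.14, 0.15 and 0.65 in isotype mice and at -0.11 to 0.13 (median -0.01) in saline mice. Isotype mice 1 and 2-2 stood out, and the other isotype mice lay within the anti-RGMb range. Sec24d was 0.30 ± 0.08 higher with OVA (adjusted p = 0.00728), and the anti-RGMb minus isotype difference of -0.22 ± 0.08 was not past the threshold (adjusted p = 0.0675). Sec23b, the partner coat subunit, had differences of 0.09 ± 0.05 and -0.11 ± 0.05, and Lman1, a receptor for glycoproteins leaving the ER, had 0.04 ± 0.05 and -0.07 ± 0.05, none past the threshold.

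**Figure D3:**
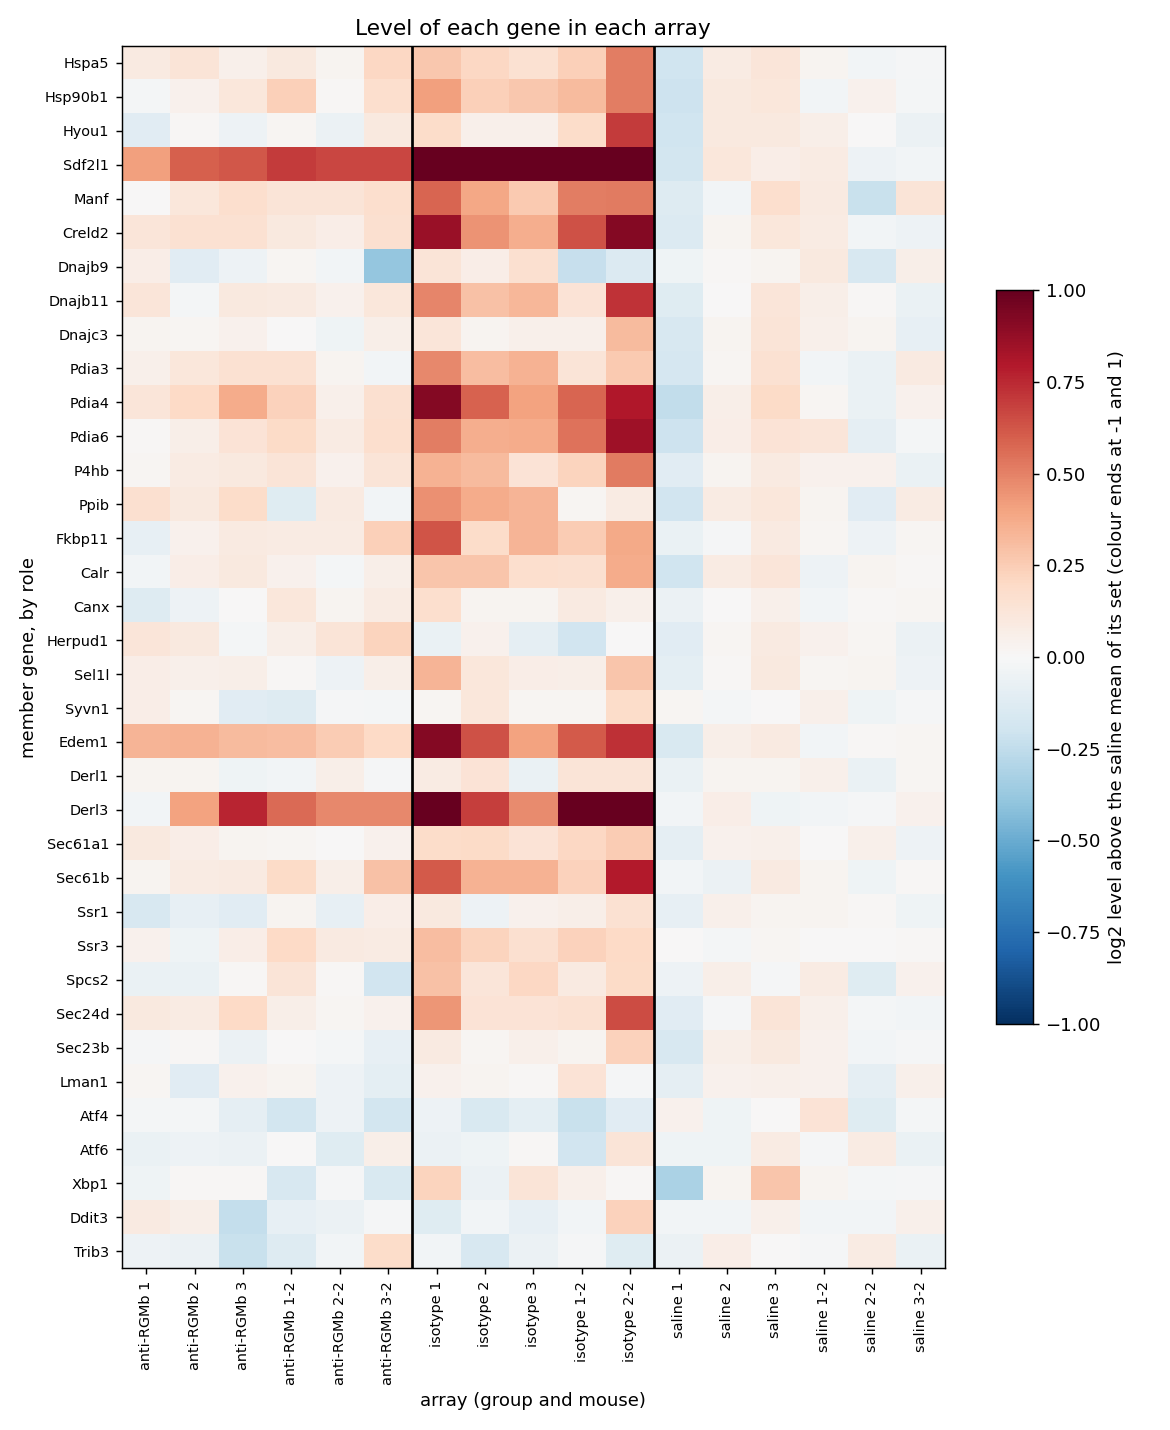
Log2 level above the saline mean of the set for the 36 measured genes (rows, by role) in 17 mice (columns: anti-RGMb left, isotype in the middle, saline right). Red is above and blue below the saline mean, with the colour ending at -1 and 1. Isotype mice 1 and 2-2 hold the darkest columns, and the 5 genes of UPR transcription and ATF4 output at the bottom show no column that stands out in the same way.

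Of the members Xbp1, Atf6, Atf4, Ddit3 and Trib3, 4 transcription factors of the response and 1 of their targets, 0 passed the threshold in any of the 3 comparisons (limma). Unadjusted, Atf4 alone had a p under 0.05, in isotype minus saline. Xbp1, the factor activated by IRE1, stood at -0.16 to 0.01 (median -0.02) in anti-RGMb mice, at 0.22, -0.06, 0.13, 0.05 and 0.01 in isotype mice and at -0.32 to 0.28 (median 0.01) in saline mice. The groups overlapped, and saline mice 1 and 3 held the lowest and the highest value. Xbp1 differed by 0.07 ± 0.08 between isotype and saline (95% interval -0.10 to 0.23) and by -0.12 ± 0.08 between anti-RGMb and isotype (-0.29 to 0.05). Atf6, the cleaved membrane factor, stood at -0.12 to 0.06 (median -0.05) with anti-RGMb, at -0.06, -0.04, 0.01, -0.19 and 0.13 with isotype and at -0.07 to 0.08 (median -0.02) with saline. Its groups overlapped, and the differences were -0.03 ± 0.06 (-0.15 to 0.09) and -0.01 ± 0.06 (-0.13 to 0.11).

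Atf4, the factor favoured by PERK, stood at -0.18 to -0.02 (median -0.07) in anti-RGMb mice, at -0.05, -0.15, -0.10, -0.22 and -0.11 in isotype mice and at -0.12 to 0.14 (median -0.01) in saline mice. All isotype and anti-RGMb mice were below the saline mean of their set, though the groups overlapped. The isotype minus saline difference was -0.13 ± 0.05, just outside the threshold (adjusted p = 0.0542, 95% interval -0.24 to -0.02), and it was past it with an offset of 16, with quantile scaling, with median centring and without the dimmest 40% of genes. Ddit3, the stress factor CHOP, stood at -0.24 to 0.09 (median -0.04) with anti-RGMb, at -0.12, -0.03, -0.08, -0.03 and 0.23 with isotype and at -0.03 to 0.05 (median -0.03) with saline, with an isotype minus saline difference of 0.00 ± 0.06 (-0.14 to 0.14). Trib3, a pseudokinase induced by ATF4 and CHOP, stood at -0.22 to 0.18 (median -0.06) with anti-RGMb, at -0.03, -0.16, -0.06, -0.01 and -0.12 with isotype and at -0.07 to 0.08 (median 0.00) with saline. For both genes the groups overlapped. Trib3 differed by -0.07 ± 0.06 between isotype and saline (-0.20 to 0.06). A p that misses the threshold does not show equal levels, and for these 5 genes the intervals allow isotype minus saline differences between -0.24 and 0.23.

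The mice of a group differed in a way that many members shared. Averaged over the 36 members, the level was 0.04 to 0.09 in anti-RGMb mice, 0.18 to 0.38 in isotype mice and -0.11 to 0.08 in saline mice. Isotype mouse 2-2 was the highest isotype mouse for 17 members and isotype mouse 1 for 13, while isotype mouse 3 was the lowest for 13. Saline mouse 1 was lowest for 24 members and saline mouse 3 highest for 23. In none of the 3 comparisons did a member's difference differ between the sets past the threshold (interaction adjusted p), while unadjusted 1 member did in isotype minus saline and 0 did in the other 2. Over all genes 132 differed between the sets in isotype minus saline, 93 between anti-RGMb and isotype, and 0 between anti-RGMb and saline.

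Other genes of the same pathways were read from written lists. For these and the marker lists below, the shares over all genes were 14.6% higher and 21.0% lower with OVA. With anti-RGMb they were 11.1% higher and 10.0% lower. Among other ER folding enzymes, 9 of 20 were called higher and 3 lower with OVA, and 7 lower and 0 higher with anti-RGMb. Erp29, a non-enzymatic folding factor of the lumen, rose by 0.75 ± 0.06 with OVA (adjusted p = 5.72e-08) and differed by -0.54 ± 0.06 with anti-RGMb. The thiol oxidase gene Ero1b had 0.58 ± 0.06 and -0.39 ± 0.06, and Uggt1, which returns unfolded glycoproteins to the lectins, had 0.38 ± 0.07 and -0.31 ± 0.07, all past the threshold. Prkcsh, the beta subunit of glucosidase II, had 0.24 ± 0.06 and -0.19 ± 0.06, also past it. Of genes for oligosaccharyl transfer and translocation, 12 of 25 were higher and 2 lower with OVA, and 8 lower and 1 higher with anti-RGMb. The signal peptidase genes Sec11c (0.73 ± 0.09 and -0.48 ± 0.09) and Spcs3 (0.62 ± 0.07 and -0.46 ± 0.07) and the translocon-associated gene Ssr4 (0.58 ± 0.08 and -0.43 ± 0.08) were called in both comparisons. Sec62, a post-translational translocation factor that also takes part in ER turnover, moved the other way (-0.38 ± 0.05 and 0.22 ± 0.05).

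Of other ERAD genes, 1 of 15 was called higher and 0 lower with OVA, and 1 was called lower and 0 higher with anti-RGMb. The called gene, Edem2, a relative of Edem1, had 0.32 ± 0.06 and -0.25 ± 0.06. Among other COPII and cycling genes 5 of 23 were higher and 1 lower with OVA, and 3 lower and 0 higher with anti-RGMb. The 3 lower are near the 10.0% called lower over all genes. Tmed3, a cargo receptor of the p24 family, had 0.44 ± 0.09 and -0.36 ± 0.09, and Lman2, a lectin receptor, had 0.25 ± 0.05 and -0.17 ± 0.05, all called. Surf4, another cargo receptor, and Golt1b were both 0.18 higher with OVA.

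Among UPR sensors and regulators, 3 of 10 were higher and 4 lower with OVA, and 1 was higher and 0 lower with anti-RGMb. The eIF2alpha phosphatase subunits moved apart, with Ppp1r15a, the stress-induced one, at -0.40 ± 0.08 with OVA and 0.29 ± 0.08 with anti-RGMb against isotype, and Ppp1r15b, the constitutive one, at 0.25 ± 0.07 with OVA (adjusted p = 0.00712). Creb3l2, an ATF6-like membrane factor, fell with OVA (-0.25 ± 0.05), as did Mbtps1, the protease that cuts ATF6 (-0.18 ± 0.06, adjusted p = 0.0284). ATF4 target genes were mixed, with 9 of 18 higher and 3 lower with OVA, and 7 lower and 2 higher with anti-RGMb. Slc7a11, the cystine transporter, differed by 2.84 ± 0.18 and -1.82 ± 0.18, the stress factor Atf3 by 1.42 ± 0.13 and -0.91 ± 0.13, the amino acid transporter Slc7a5 by 1.09 ± 0.13 and -0.80 ± 0.13, and the serine synthesis enzyme Psat1 by 0.82 ± 0.07 and -0.67 ± 0.07. Cytosolic and mitochondrial heat shock genes had 2 of 10 higher and 2 lower with OVA, near the 14.6% and 21.0% over all genes. Hspe1 was at 0.47 ± 0.07 and Hspb1 at -0.55 ± 0.14.

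Markers of plasma cells and of goblet and mucous cells were mostly higher with OVA, and most were not past the threshold with anti-RGMb. Of plasma cell markers, 9 of 11 were higher and 2 lower with OVA, and 4 were lower and 0 higher with anti-RGMb. Their mean level was 0.29 to 0.65 in anti-RGMb mice, 0.66 to 1.41 in isotype mice and -0.07 to 0.07 in saline mice. Jchain, which joins secreted antibodies, was 3.39 ± 0.54 higher with OVA, and its anti-RGMb minus isotype difference was -0.75 ± 0.54, not past the threshold. Irf4, a factor of plasma and other lymphoid cells, had 2.15 ± 0.09 and -1.19 ± 0.09. Of goblet and mucous markers, 10 of 12 were higher and 0 lower with OVA, while 2 were lower and 0 higher with anti-RGMb. Their mean was 0.98 to 2.35 in anti-RGMb mice, 0.91 to 2.83 in isotype mice and -0.17 to 0.33 in saline mice. Anti-RGMb and isotype mice thus overlapped widely there. The 2 groups did not overlap in the plasma cell means, where the nearest mice stood at 0.65 and 0.66, or in the means of the 36 members. Clca1, a secreted goblet cell protein, had 5.37 ± 0.64 with OVA and 0.72 ± 0.64 with anti-RGMb against isotype (adjusted p = 0.48).

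Macrophage markers were higher with OVA in 9 of 10 cases and lower with anti-RGMb in 8, with means of 1.23 to 1.45 in anti-RGMb mice, 1.84 to 2.16 in isotype mice and -0.17 to 0.12 in saline mice. Proliferation markers were higher in 7 of 7 and lower in 7 of 7, with means of 0.93 to 1.18 in anti-RGMb mice, 1.64 to 2.59 in isotype mice and -0.45 to 0.30 in saline mice. Eosinophil markers were higher in 6 of 6 and lower in 5, and T cell markers higher in 6 of 7 and lower in 4. Resident cells went the other way. With OVA 9 of 9 endothelial, 8 of 8 ciliated, 5 of 5 club cell and 6 of 10 alveolar type 2 markers were lower, with 1 alveolar type 2 marker (Sftpd) higher, and 8 endothelial, 7 ciliated, 4 club cell and 3 alveolar type 2 markers were higher with anti-RGMb than with isotype, with 1 alveolar type 2 marker (Sftpd again) lower. Fibroblast markers were split, with 3 of 7 higher and 3 lower with OVA, and 2 higher and 2 lower with anti-RGMb. Heart muscle markers, which lung samples can carry, were lower with OVA in 7 of 8 and higher with anti-RGMb in 5. The part of any of these cell types in the levels of the ER genes was not tested. Within the saline group the proliferation, macrophage, fibroblast and alveolar type 2 means were lowest in saline mouse 1 and highest in saline mouse 3, the mice that were lowest and highest for most members. The heart muscle, club cell and plasma cell means were highest in saline mouse 1 (1.07 for heart muscle).

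**Figure D4:**
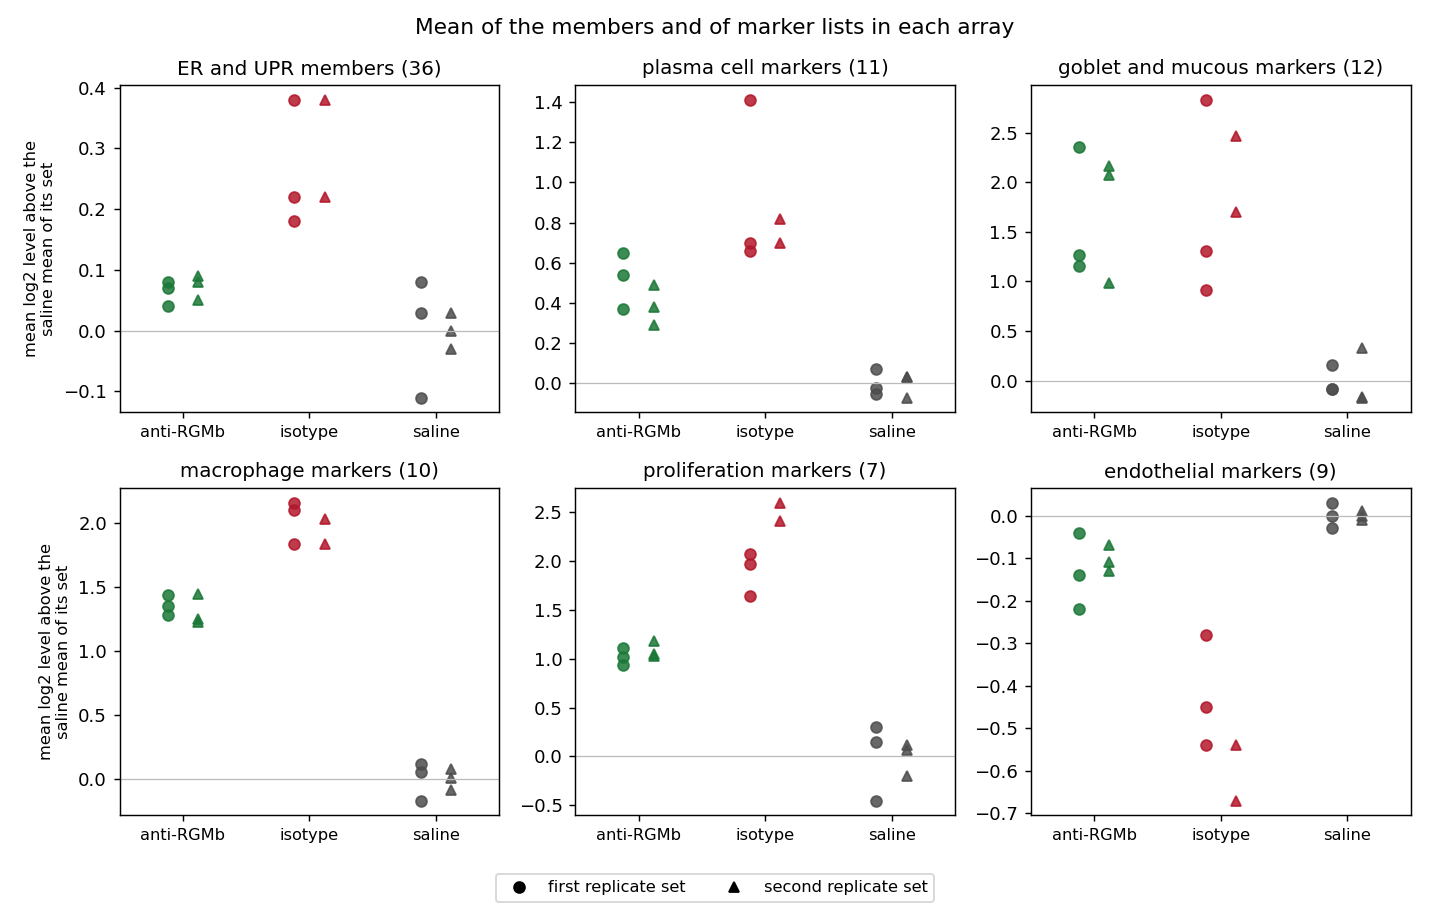
Mean log2 level above the saline mean of the set, over the 36 ER and UPR genes and over 5 marker lists (number of genes in parentheses), in each anti-RGMb, isotype and saline mouse. Circles are mice of the first set and triangles of the second, and the vertical scale differs between panels. Isotype mice lie above anti-RGMb mice for the ER genes, for macrophage and proliferation markers and, by a narrow gap, for plasma cell markers. They overlap with anti-RGMb mice for goblet and mucous markers and lie below them for endothelial markers.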

How the data were processed

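Lung RNA was measured on 17 arrays, each counted as 1 mouse. The deposited table holds linear probe set intensity, which the authors made with RMA per the submitters' processing notes; its version and the genome build are not given in the sources used here. Of 24679 probe sets, 21354 had 1 gene symbol in the platform annotation, 1275 had several and 2050 had none. Single-symbol probe sets were used, the brightest over all arrays for the 893 genes with several, which left 19751 genes. The deposited intensities were turned into log2 with no added constant.

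Group means with the replicate set as a block were fitted to all 17 arrays with limma 3.58.1 in R 4.3.3 (eBayes, prior degrees of freedom 4.32), 2-sided, with Benjamini-Hochberg adjustment over all genes of a comparison. A second fit with 6 means gave the values within each set and their difference. The fit was tested on simulated data. The number of arrays limits the precision. The genes and lists were chosen with earlier results of these data known. Full values per mouse follow a rule: per role, up to 3 called members with the smallest p, and the 5 genes of UPR transcription and ATF4 output; of each other list, up to 4 genes with the smallest p were eligible for naming. Alternatives were an offset of 16, quantile or median scaling, leaving out the dimmest 40% of genes, all probe sets, other variance models and array weights. Others were only the compared groups, the comparisons within each set from the second fit, each array left out and the mouse number as a replicate block.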

Additional observations from a re-analysis of the deposited data

Results flagged for a closer look

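In each of 108 groups of mice (36 genes in 3 groups), the mouse farthest from the rest was compared with the range of its group, and 3 groups held a mouse beyond the 95% critical value, fewer than the 1 in 20 (5%) that chance gives. Hyou1 stood at 0.70 in isotype mouse 2-2, above 0.05 to 0.18 in the other isotype mice. Sdf2l1 stood at 0.41 in anti-RGMb mouse 1, the lowest of its group. Ddit3 stood at 0.23 in isotype mouse 2-2. Among 36 groups of marker list means, the plasma cell mean of isotype mouse 1 was 1.41, above 0.66 to 0.82 in the other isotype mice, and Derl3 was also highest there (2.03).

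The isotype minus saline difference of Slc7a5 was larger in the second replicate set than in the first by 0.78 (1.53 ± 0.12 against 0.75 ± 0.11, interaction adjusted p = 0.043, limma).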

How the results depend on the processing

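No value of a member turned its direction past the threshold under any alternative run. Among the alternatives that did not leave out 1 mouse, 5 lost the isotype minus saline call of Hyou1. For anti-RGMb minus isotype, 5 lost the call of Hyou1 and 4 that of Derl3. Leaving out each array in turn, isotype minus saline gave 19 to 23 members higher, 0 to 1 lower and 6458 to 7358 genes called. Anti-RGMb minus isotype gave 0 to 1 members higher, 15 to 20 lower and 3581 to 4466 genes. Anti-RGMb minus saline gave 2 to 3 members higher, 0 lower and 913 to 1540 genes. In isotype minus saline 1 member (Atf4) was called lower with an offset of 16, with quantile scaling, with median centring and without the dimmest 40% of genes. The call of Herpud1 as higher was lost (0 members) with array weights, with only the compared groups and within each set. Each set alone has fewer mice and called fewer: 4 and 9 members lower in anti-RGMb minus isotype, 1 member higher in each set in anti-RGMb minus saline, 4025 genes in isotype minus saline and 1279 in anti-RGMb minus isotype (first set), and 763 and 653 genes in anti-RGMb minus saline, against 7034, 4180 and 1284 with both. Array weights and only the compared groups called 2541 and 2009 genes in anti-RGMb minus saline; the cause was not tested. With only the compared groups Derl3 was called there too (0.44, adjusted p = 0.0118, limma).

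Mouse numbers recur in the groups, and mice were taken as unpaired. Residuals of the 16 same-numbered pairs correlated at -0.60 to 0.30, over 0.1 in 3. This cannot decide on pairing, since no pairs with different numbers were set beside them and the group means rest on few mice. With the mouse number as a replicate block, 19 members were higher in isotype minus saline, 13 lower and 0 higher in anti-RGMb minus isotype, and 2 higher in anti-RGMb minus saline.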
